A study of Mus musculus with 40 samples.

Results

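The transcripts described here are 10 long noncoding RNAs that carry small nucleolar RNAs (snoRNAs) in their introns, Gas5, Snhg1, Snhg3, Snhg4, Snhg5, Snhg6, Snhg7, Snhg8, Snhg11 and Snhg12. They were found by symbol among the 24062 genes of a count table, and all 10 had a row. RNA-Seq was performed on primary fibroblasts (MEFs) from mouse embryos of 13.5 dpc (days post coitum), at passage 3 and in a mixed C57BL/6J-129P2OlaHsd strain background. Sall2, which encodes a multi-zinc finger transcription factor, was intact (WT), disrupted on one allele (Het) or disrupted on both (KO) in every cell of the embryo by a neomycin cassette, and KO cells also keep a 129P2 segment of chromosome 14 around it. Cultures were untreated (control) or received 1 µM doxorubicin, a topoisomerase poison that breaks DNA, for 16 h. The control libraries came from 1 WT, 1 Het and 3 KO embryos, and those with doxorubicin from 1 WT, 1 Het and 2 KO embryos, because the library of KO embryo 3 with doxorubicin held the same counts as that of KO embryo 2 for all 24062 genes and was counted once. Which of these embryos that library came from is not known from the sources used here. It is called KO embryo 2 with doxorubicin below. The main paired results of the hosts are also given with KO embryo 3 as the pair of this library. Where no pairing is named, KO embryo 2 is the pair. The spread between embryos of one genotype is therefore known only for KO.

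snoRNAs guide the chemical modification of ribosomal RNA, box C/D snoRNAs its 2′-O-methylation and box H/ACA snoRNAs its pseudouridylation. They are cut out of introns after splicing, and the joined exons of a host such as Gas5 (growth arrest specific 5) carry only short reading frames, so that ribosomes and nonsense-mediated decay remove them rapidly while translation is active. Many host RNAs begin with a cytosine and an unbroken run of pyrimidines, the terminal oligopyrimidine (TOP) element shared with ribosomal protein mRNAs, and Gas5 is best known for accumulating when growth stops.

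The annotated starts of 5 hosts are shown from 20 bases before to 30 bases after the first transcribed base, because the start is the feature that hosts are known to share with ribosomal protein genes. The sequences are those of RefSeq (GRCm38.p6, the assembly of mm10), which had 9 starts for 8 of the 10 hosts, and capitals mark the run of C and T that begins at the first transcribed base.
Gas5, downstream start: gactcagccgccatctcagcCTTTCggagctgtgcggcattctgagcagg
Snhg7: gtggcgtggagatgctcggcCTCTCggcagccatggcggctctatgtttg
Snhg8: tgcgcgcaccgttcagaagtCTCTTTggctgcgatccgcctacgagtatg
Snhg12: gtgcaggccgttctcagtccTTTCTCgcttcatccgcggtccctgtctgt
Snhg5: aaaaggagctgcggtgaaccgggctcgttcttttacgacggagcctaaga
These windows lie at chr1:161035146-161035195 on the plus strand for Gas5, chr2:26640215-26640264 on the minus strand for Snhg7, chr3:123508307-123508356 on the minus strand for Snhg8, chr4:132308658-132308707 on the plus strand for Snhg12 and chr9:88522868-88522917 on the minus strand for Snhg5. A C at the first base followed by at least 4 further C or T, read on the transcribed strand only, was present at 3 of the 9 starts (Gas5, Snhg7 and Snhg8) and at 823 of the 32851 RefSeq starts of the genome, which is 2.51%. The run at Snhg12 begins with T, and at Snhg5 the annotated first base is a G. A match describes letters at an annotated start and is not evidence of a functional element.

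Of the snoRNAs inside the hosts, 3 are shown because their rows in the count table are given one by one below. The capitals mark the C box (TGATGA) and the D box (CTGA) of these box C/D snoRNAs, and in Snord22 only a D box was found by these letters.
Snord22, in Snhg1: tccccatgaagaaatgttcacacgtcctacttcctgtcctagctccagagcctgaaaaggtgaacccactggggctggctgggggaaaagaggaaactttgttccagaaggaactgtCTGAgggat
Snord47, in Gas5: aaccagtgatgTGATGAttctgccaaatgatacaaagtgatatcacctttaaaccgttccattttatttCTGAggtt
Snord87, in Snhg6: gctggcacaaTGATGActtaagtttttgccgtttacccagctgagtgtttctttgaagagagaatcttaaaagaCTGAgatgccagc
RefSeq places 31 snoRNA genes inside the 10 hosts, 8 each in Gas5 and Snhg1, 4 in Snhg12, and 1 or 2 in each of the others, and 11 of them have a row in the table. Gas5 spans chr1:161034601-161038539, Snhg1 chr19:8723487-8726326, Snhg3 chr4:132351933-132353686 and Snhg5 chr9:88521052-88522897. Snhg6 spans chr1:9942025-9944118, Snhg7 chr2:26637176-26640244, Snhg8 chr3:123507552-123508336, Snhg11 chr2:158375713-158386474 and Snhg12 chr4:132308678-132311024.

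The libraries held between 15560728 and 24122414 counts, and 3 counts corresponded to between 0.124 and 0.167 CPM, the unit of level used here (counts relative to a library size corrected by edgeR's TMM factors). Among the controls, Sall2 counted 756 reads for WT, 587 for Het and 388, 432 and 424 for KO embryos 1, 2 and 3. Scaled for library size these were 37.0 CPM for WT, 24.3 CPM for Het, and 19.5, 23.8 and 19.1 CPM for KO. Reads over the whole gene were thus lower in KO than in WT but not absent, and Het was close to KO embryo 2. The Het and the KO embryo 3 control libraries stood apart from the other 3 control libraries. A list of 10 interferon-induced genes summed to 2195 CPM in Het and 2383 CPM in KO embryo 3, against 44.9 CPM to 62.0 CPM in the other controls. For 7 macrophage markers the sums were 508 CPM and 389 CPM against 100.2 CPM to 172 CPM, and none of these markers was at 0 in any library. Of the 7, 6 were above WT in Het and 5 in KO embryo 3. For 10 fibroblast markers the sums were 21600 CPM and 17240 CPM against 80640 CPM to 97340 CPM, all 10 being detected in every library. With doxorubicin, the Het library still had the highest interferon sum (1515 CPM against 330.5 CPM to 417 CPM) and macrophage sum (537 CPM against 89.6 CPM to 130 CPM), and the lowest fibroblast sum (24790 CPM against 50170 CPM to 63080 CPM). These values moved with the host levels described next, and their part in the results was not tested. In bulk RNA, fewer cells of a type and less RNA per cell cannot be told apart.

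All 10 hosts were most abundant in the KO embryo 3 control library and next in the Het control library, while WT and KO embryos 1 and 2 lay below both. The levels are given per gene as CPM and are not compared between genes, since the rows differ in length. Gas5 had 13.4 CPM in the WT library, 53.2 CPM in the Het library, and 9.61, 12.1 and 71.3 CPM in KO embryos 1, 2 and 3, so that the KO mean of 31.0 ± 34.9 CPM (SD, n = 3) had an SD above the mean. Snhg1, host of Snord22 and other box C/D snoRNAs, had 29.3 CPM in the WT library, 149.5 CPM in the Het library, and 22.9, 22.2 and 211 CPM in the KO embryos. The same 2 libraries were thus high for both genes, and KO embryo 3 was 7.36-fold above KO embryo 1 for Gas5 and 9.15-fold for Snhg1.

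Snhg6, host of Snord87, had 24.5 CPM in the WT library, 128 CPM in the Het library, and 25.8, 21.8 and 175 CPM in the KO embryos. Snhg12, host of 3 box H/ACA snoRNAs and Snord99, had 15.95 CPM in the WT library, 49.1 CPM in the Het library, and 6.14, 16.3 and 57.5 CPM in the KO embryos. It was the host with the largest difference between KO embryos 1 and 2. Snhg11, which is known mainly from neurons, was close to the floor in 3 controls and had the largest ratios. Its counts were 8 for WT, 304 for Het, and 7, 7 and 353 for the KO embryos. The fold of Het over WT, with a prior count of 2, was 25.9 for Snhg11 and lay between 2.165 (Snhg8, host of Snora24) and 5.21 (Snhg6) for the other 9 hosts.

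**Figure D1:**
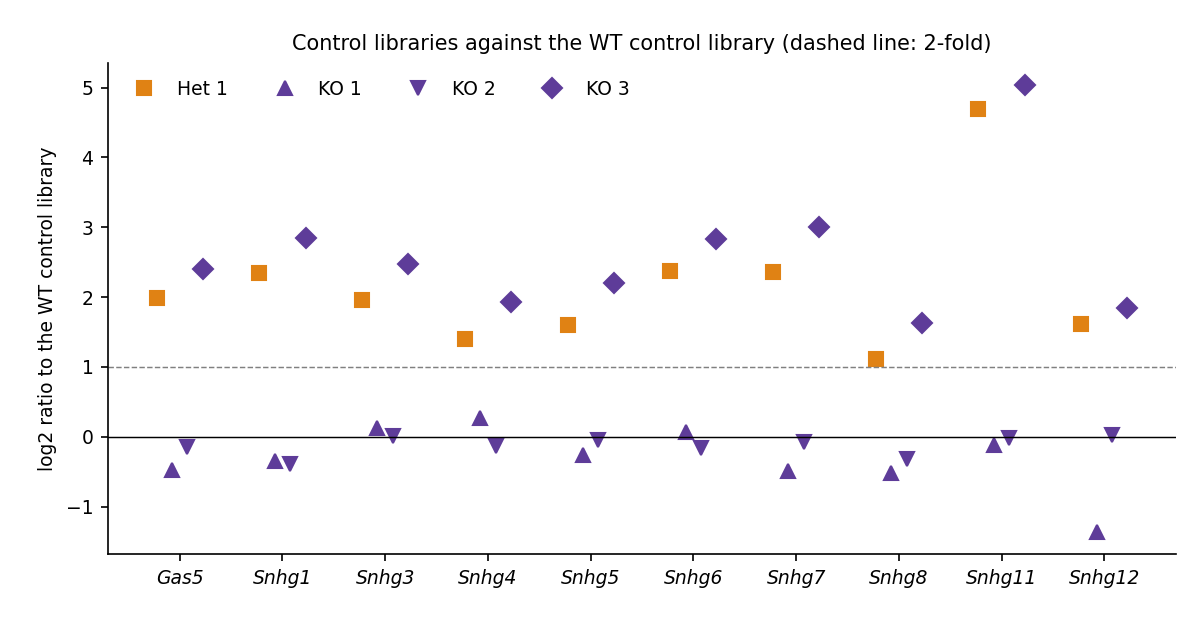
Log2 ratio of each control library to the WT control library (vertical axis, log2 CPM difference with a prior count of 2) for the 10 hosts, with 1 point per library (square Het, triangles KO embryos 1 and 2, diamond KO embryo 3). Het and KO embryo 3 lie above the dashed 2-fold line for all 10 hosts, and KO embryos 1 and 2 lie between -1.36 and 0.27.

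In the Het control library all 10 hosts were at least 2-fold above WT, and of the 14883 genes that passed the filter on low counts, 20.4% were. In KO embryo 3 all 10 were at least 2-fold above WT, against 19% of genes. Over the 9 hosts that passed this filter, the median log2 ratio to WT was 1.97 in Het and 2.40 in KO embryo 3, against -0.35 in KO embryo 1 and -0.14 in KO embryo 2. The median over all genes tested was between -0.02 and 0.02 in these 4 libraries. With doxorubicin, the Het library was again above WT for all 10 hosts, and 6 of them were at least 2-fold higher. Of the 9 hosts that passed the filter 5 were, against 14.6% of the genes that passed it. Each of these is a ratio of 2 libraries with no replicate check, and all share the WT library of their treatment.

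Most genes next to the hosts were not higher in these libraries. RefSeq names a neighbour on each side, and 16 of these are in the table, 1 of them itself a snoRNA host (9430008C03Rik, now called Snhg17). Among the other 15 neighbours, 10 were below WT in Het and 10 in KO embryo 3, with median log2 ratios of -0.23 and -0.29. For example, Syncrip, an RNA-binding protein gene beside Snhg5, had 234 CPM in the WT library, 97.6 CPM in the Het library, and 261, 239 and 103 CPM in the KO control embryos. Matr3, a nuclear matrix protein gene beside Snhg4, had 212 CPM in the WT library, 139 CPM in the Het library, and 225.5, 217 and 151 CPM in the KO embryos. Het and KO embryo 3 were the lowest controls for both genes.

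Other genes of the pathway were set beside the hosts. The 4 further noncoding host genes that passed the filter were the snoRNA hosts Snhg10, Snhg18 and Dancr and the microRNA host Mir17hg. All 4 were above WT in Het and KO embryo 3, with median log2 ratios of 1.82 and 1.99. The 39 protein-coding hosts, mostly ribosomal protein and translation factor genes, had medians of 0.30 and 0.49, with 25 and 27 of 39 above WT. Proteins of the snoRNP particles and their assembly had medians of -0.51 and -0.43 over 19 genes. Factors of nonsense-mediated decay had medians of -0.21 and -0.16 over 20 genes, and 15 mRNAs known as its targets, such as Atf4 and Gadd45b, had medians of 0.00 and 0.09. These lists were chosen with results of these data known, and the medians are descriptions.

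KO was compared with WT among the control libraries to ask which genes depend on Sall2. None of the 10 hosts passed an FDR under 0.01 by edgeR's quasi-likelihood test, and neither did any of the 14470 genes tested (0%). An unadjusted p under 0.05 was reached by 0 of the 10 hosts and by 10 genes, and DESeq2's Wald test called 0 genes and gave 1 host at that level. The number of hosts at an unadjusted p under 0.05 was 7 without KO embryo 1 and 6 without KO embryo 2 (edgeR), where 262 and 250 genes reached it, and 0 hosts passed the FDR in either. The fitted log2 fold changes of KO over WT were positive for all 10 hosts, from 0.63 (SE 1.01) for Snhg8 to 3.83 (SE 2.98) for Snhg11. They rested on KO embryo 3, as the ratios of KO embryo 1 to WT ran from -1.36 to 0.27 and those of KO embryo 2 from -0.40 to 0.03. With 1 WT library the spread came from KO alone.

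With doxorubicin the fitted differences between KO and WT were smaller, but this fit held 2 KO libraries and the control fit 3. In control, the median log2 ratio to WT over the hosts tested was -0.35 in KO embryo 1 and -0.14 in KO embryo 2. With doxorubicin it was -0.31 and 0.05 in the same order, about as near to WT. The log2 fold changes of KO over WT ranged from -0.37 (SE 0.232) for Snhg12 to 0.27 (SE 0.492) for Snhg7, and 0 of the 9 hosts tested passed, against 30 of 15256 genes (0.197%). No host had an unadjusted p under 0.05 in edgeR, against 433 genes, and DESeq2's Wald test called 5 genes and 0 hosts. This fit had 1 residual degree of freedom. Whether doxorubicin acted differently in KO and WT was tested as an interaction over 7 libraries, and 0 of 10 hosts and 0 of 15905 genes (0%) passed by edgeR or by DESeq2, with 0 hosts and 41 genes at an unadjusted p under 0.05 in edgeR. The interaction terms of the hosts were all negative, between -4.19 (SE 3.61) for Snhg11 and -0.71 (SE 1.25) for Snhg8, and the smallest unadjusted p of a host in edgeR was 0.291, for Snhg11. This common sign rested on the KO embryo 3 control library. With the embryo as a block the terms ran from -0.34 to 0.55, 5 negative and 5 positive, and without that library from -0.28 to 0.54 over 9 hosts, 4 negative and 5 positive, and again 0 hosts passed. With KO embryo 3 as the pair in the block, 3 hosts and 158 genes reached an unadjusted p under 0.05 in edgeR, and 0 hosts passed the FDR.

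Doxorubicin was then compared with control across genotypes. Snhg5, a host of box C/D snoRNAs, had 17.7 CPM in the WT library, 53.5 CPM in the Het library, and 14.8, 17.1 and 82.0 CPM in the KO control embryos, and with doxorubicin 6.12 CPM in the WT library, 14.3 CPM in the Het library, and 4.29 and 6.56 CPM in KO embryos 1 and 2. It fell in 4 of 4 embryos, and every library with doxorubicin was below every control library. Its log2 fold change was -2.30 (SE 0.586, edgeR FDR 0.009645), and it was the only one of the 9 hosts tested to pass in the fit on 9 libraries with genotype as a covariate. In that fit 20.2% of the 14883 genes were lower and 21.9% were higher at this threshold. The call on Snhg5 was lost in 6 of the 9 fits that left out 1 library, those without either WT library, either Het library or either KO library with doxorubicin, where its edgeR FDR reached 0.04185, and its log2 fold change stayed between -2.53 and -1.64.

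Gas5 had 7.81 CPM in the WT library, 15.4 CPM in the Het library, and 5.91 and 6.97 CPM in the KO embryos with doxorubicin, below its control level in 4 of 4 embryos. The groups overlapped only through the Het library, which was above 3 of the 5 controls. Snhg3, host of a pair of box H/ACA snoRNAs, had 8.12 CPM in the WT library, 32.0 CPM in the Het library, and 8.90, 8.215 and 45.7 CPM in the KO control embryos. With doxorubicin it had 4.03 CPM in the WT library, 11.65 CPM in the Het library, and 3.23 and 3.85 CPM in KO, again below control in 4 of 4 embryos. Snhg4, host of Snora74a, had 9.05 CPM in the WT library, 24.0 CPM in the Het library, and 10.9, 8.215 and 34.7 CPM in the KO control embryos. With doxorubicin it had 5.62 CPM in the WT library, 8.24 CPM in the Het library, and 5.52 and 5.965 CPM in KO, which was lower in 4 of 4 embryos. For both genes the groups overlapped through the Het library with doxorubicin. The log2 fold changes in the fit on 9 libraries were -1.82 (SE 0.642) for Gas5, -1.94 (SE 0.607) for Snhg3 and -1.40 (SE 0.447) for Snhg4, with edgeR FDRs of 0.0387, 0.02385 and 0.0257.

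**Figure D2:**
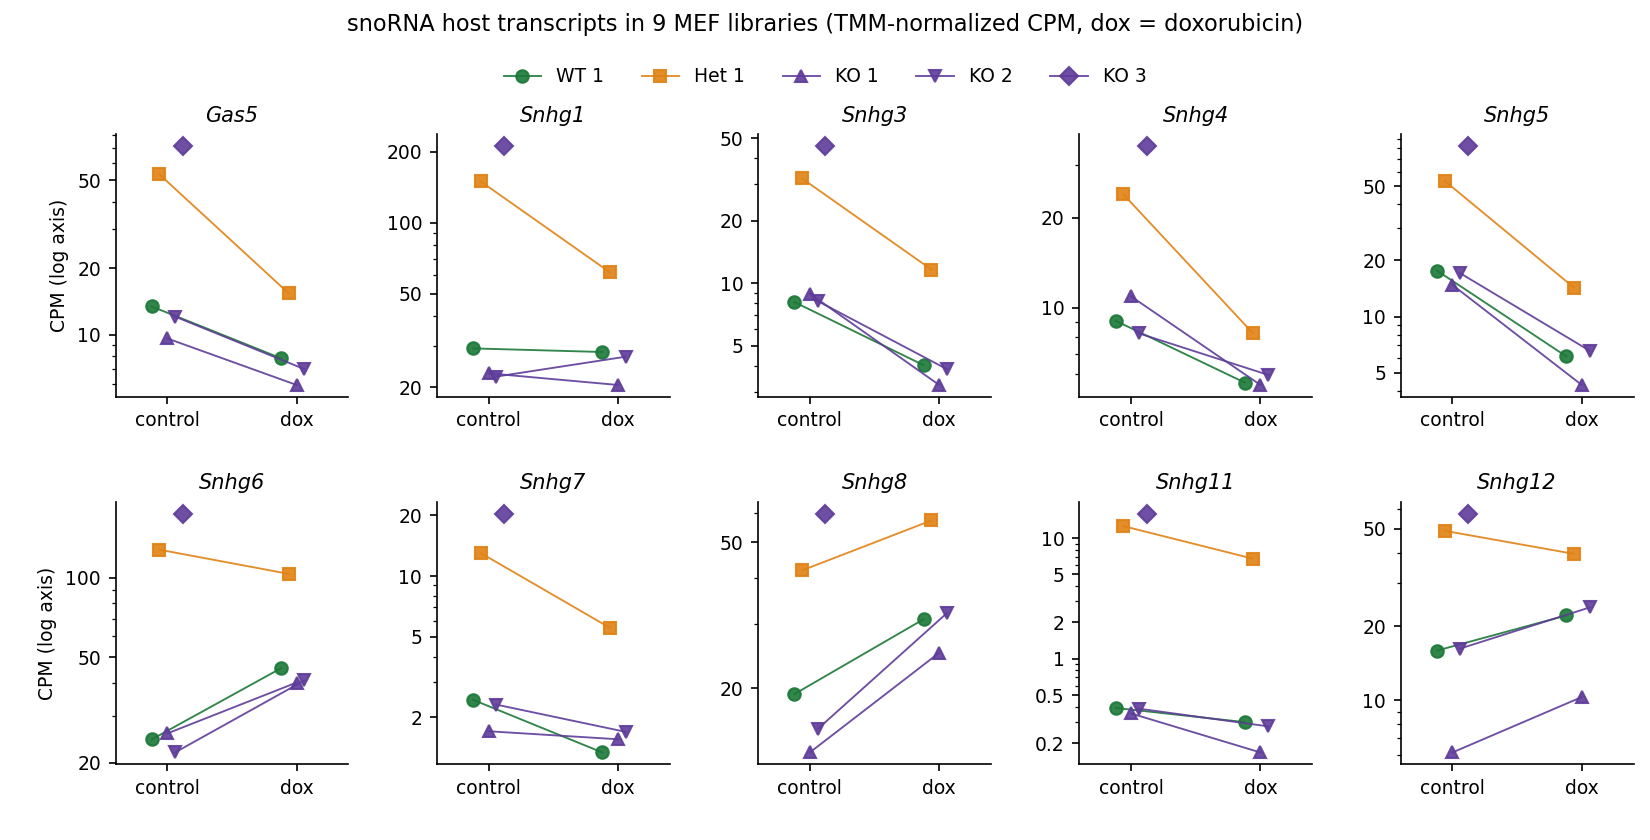
CPM (TMM-normalized, log axis, own scale per panel) of the 10 hosts in 5 control and 4 doxorubicin libraries, with lines joining libraries of the same embryo (circle WT, square Het, triangles KO embryos 1 and 2, diamond KO embryo 3, and the KO library of uncertain embryo drawn with embryo 2). KO embryo 3 and Het are the highest controls in all 10 panels, and Gas5, Snhg3, Snhg4, Snhg5, Snhg7 and Snhg11 fall along every line.

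The biological coefficient of variation of that fit was 0.331, and it was 0.183 in a paired fit and 0.125 without the Het and KO embryo 3 libraries. Libraries with the same number were taken as the same embryo, and with the embryo as a block (a paired fit, in which KO embryo 3 control has no partner and does not enter the estimate) 5 of 9 hosts passed. The log2 fold changes were -1.03 for Gas5 (edgeR FDR 0.00251), -1.26 for Snhg3 (FDR 0.000174), -0.93 for Snhg4 (FDR 0.00362) and -1.65 for Snhg5 (FDR 3.65e-05), and 0.76 for Snhg8 (FDR 0.00124). In this paired fit 28.8% of genes were lower and 30.6% higher, so that 4 of 9 hosts lower and 1 of 9 higher stand against these shares. With the library of uncertain embryo paired with KO embryo 3 control instead, 3 of 9 hosts were lower (Snhg3, Snhg4 and Snhg5) and 0 higher, against 19.1% and 21.3% of genes. The log2 fold change of Gas5 was then -1.645 (edgeR FDR 0.0119), and Snhg8 did not pass (0.29, FDR 0.434). Against KO embryo 3 control all 10 hosts were lower in that library, so the hosts described as lower in 4 of 4 embryos are so under either pairing.

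Without both Het libraries and the KO embryo 3 control library, which leaves 3 libraries a group and 14629 genes tested, 6 of 9 hosts passed, 4 lower and 2 higher, against 32.4% of genes lower and 35.4% higher. The log2 fold changes were -1.54 (SE 0.181, edgeR FDR 2.93e-05) for Snhg5, -1.18 (SE 0.175, FDR 0.000146) for Snhg3, -0.76 (SE 0.158, FDR 0.00141) for Gas5 and -0.72 (SE 0.169, FDR 0.0029) for Snhg4. Snhg8 rose by 0.88 (SE 0.141, FDR 0.00026) and Snhg6 by 0.80 (SE 0.106, FDR 6.46e-05). The median over the 9 hosts was -0.49, against 0.04 over all genes tested, and it was -1.40 in the fit on 9 libraries and -0.72 in the paired fit. The controls left out were those in which every host was highest, so the spread and the FDRs of this fit depend on that choice. It did not use the embryo pairs.

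**Figure D3:**
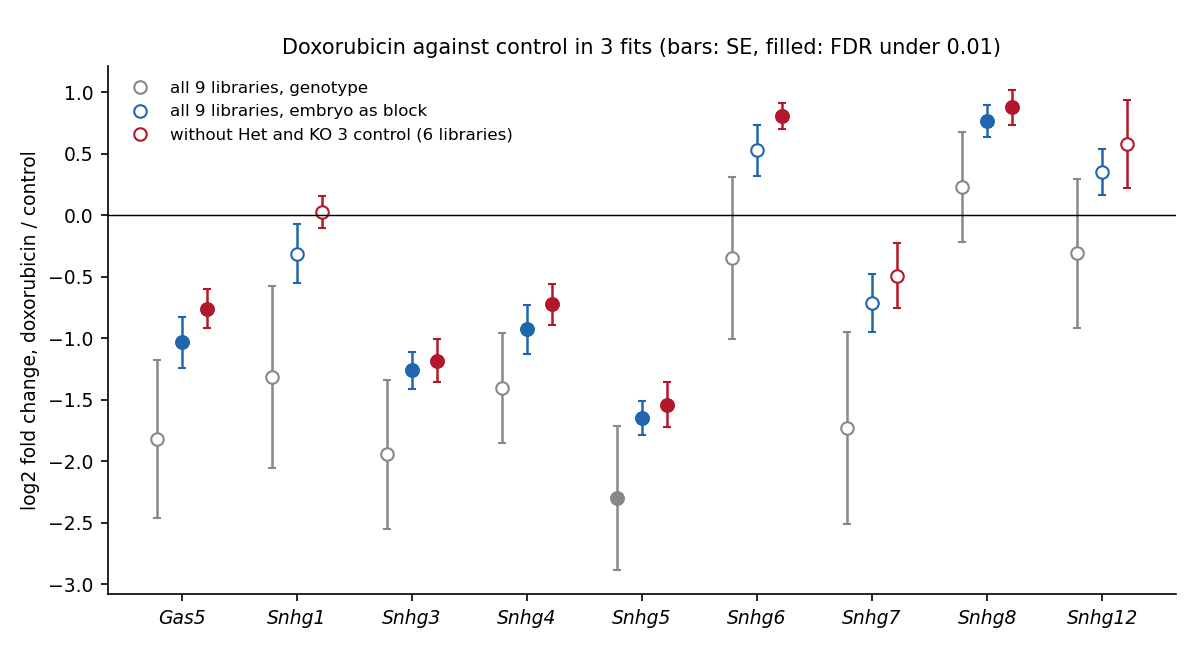
Log2 fold change of doxorubicin over control for the 9 hosts tested, with SE bars, in the fit on 9 libraries with genotype (grey), the paired fit with embryo as a block and KO embryo 2 as the pair (blue) and the fit on 6 libraries without Het and KO embryo 3 control (red), where filled points have an edgeR FDR under 0.01. Snhg5 is filled in all 3 fits, and Snhg6 and Snhg12 lie below 0 in the first fit and above 0 in the other 2.

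Snhg8 was the host that was higher in every pair, as long as the library of uncertain embryo was paired with KO embryo 2. It had 19.3 CPM in the WT library, 41.85 CPM in the Het library, and 13.4, 15.5 and 59.65 CPM in the KO control embryos, and with doxorubicin 30.8 CPM in the WT library, 57.2 CPM in the Het library, and 25.0 and 32.0 CPM in KO. Its log2 ratios were 0.67 for WT, 0.45 for Het, and 0.90 and 1.04 for KO embryos 1 and 2, while the fit on 9 libraries gave 0.23 (SE 0.446, edgeR FDR 0.682). KO embryo 3 without treatment was above every library with doxorubicin, and paired with it the last of these ratios was -0.90.

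For Snhg6, Snhg12 and Snhg1 the direction depended on the libraries. Snhg6 had 45.5 CPM in the WT library, 103.5 CPM in the Het library, and 40.15 and 40.9 CPM in KO with doxorubicin, above control in WT and both KO pairs and below it in Het. Its log2 fold change was -0.35 (SE 0.659, edgeR FDR 0.678) in the fit on 9 libraries, 0.53 (SE 0.206, FDR 0.0491) in the paired fit and 0.80 without the Het and KO embryo 3 control libraries, and it was -0.18 (FDR 0.756) in the paired fit that used KO embryo 3 as the pair. Snhg12 had 22.2 CPM in the WT library, 39.5 CPM in the Het library, and 10.3 and 23.9 CPM in KO with doxorubicin, likewise above control in all but Het. It did not pass in any of the 3 fits, at -0.31, 0.35 and 0.58, nor with KO embryo 3 as the pair, at -0.099. Snhg1 had 28.25 CPM in the WT library, 61.4 CPM in the Het library, and 20.5 and 27.0 CPM in KO with doxorubicin. Its log2 ratios were -0.051 for WT, -1.28 for Het, and -0.16 and 0.28 for KO embryos 1 and 2, so the Het pair moved most, and it did not pass in any of the 3 fits.

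Snhg7, host of Snora17 and Snora43, was lower in 4 of 4 embryos without passing in any of these fits. It had 2.45 CPM in the WT library, 13.0 CPM in the Het library, and 1.71, 2.32 and 20.3 CPM in the KO control embryos, and with doxorubicin 1.34 CPM in the WT library, 5.54 CPM in the Het library, and 1.56 and 1.70 CPM in KO. Its log2 fold change in the 3 fits was -1.73, -0.72 and -0.49, with edgeR FDRs of 0.0899, 0.0256 and 0.112. Snhg11 counts with doxorubicin were 6 for WT, 133 for Het, and 3 and 6 for KO embryos 1 and 2. It did not pass the filter on low counts and was not tested, and outside the Het and KO embryo 3 libraries its difference was not detectable at this depth.

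Gas5, Snhg7 and Snhg8 were the 3 hosts with a C and at least 4 further C or T at an annotated start. Gas5 and Snhg7 were lower with doxorubicin in 4 of 4 pairs, and Snhg8 was higher in 4 of 4. Snhg12, whose run of pyrimidines begins with T, was higher in all pairs but Het. These pairs use KO embryo 2. The upstream start of Gas5 and the start of Snhg5, which had the largest decrease in each of the 3 fits, have no such run. Whether the run bears on the response was not tested.

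Other genes of the pathway were followed in the same fits. Of 19 genes for proteins of the snoRNP particles and their assembly, 9 fell and 0 rose in the fit on 9 libraries, 13 fell and 1 rose in the paired fit, and the median log2 fold changes were -0.80 and -0.76. The shares of all genes, here and for the lists that follow, were 20.2% lower and 21.9% higher in the fit on 9 libraries and 28.8% lower and 30.6% higher in the paired fit. Dkc1, the pseudouridine synthase of the H/ACA particle and itself a snoRNA host, fell by 1.86 on the log2 scale (SE 0.166, edgeR FDR 5.81e-05). Nop58, a core protein of the C/D particle, fell by 1.78 (SE 0.162, FDR 6.37e-05). Tcof1, the nucleolar protein treacle, fell by 1.47 (SE 0.2745, FDR 0.00203), and Znhit6, an assembly factor of C/D particles, fell by 1.35 (SE 0.217, FDR 0.000957). Dkc1 was lower in the Het and KO embryo 3 controls, with 41.8 CPM in the WT library, 23.7 CPM in the Het library, and 39.3, 38.5 and 29.3 CPM in the KO embryos.

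Of 20 factors of nonsense-mediated decay, 12 fell and 0 rose in the fit on 9 libraries and 16 fell in the paired fit, with medians of -0.93 and -0.91 against -0.02 and 0.03 over all genes tested. Smg1, the kinase that phosphorylates UPF1, fell by 1.40 (SE 0.169, edgeR FDR 0.000224), and Magohb, a subunit of the exon junction complex, fell by 1.96 (SE 0.222, FDR 0.000159). Dhx34, a helicase of the pathway, fell by 1.42 (FDR 0.000639), and Pnrc2, which links it to decapping, fell by 1.29 (FDR 0.00156). Of 15 known target mRNAs, 9 fell and 0 rose, with a median of -1.25. Trib3, a stress pseudokinase, fell by 3.60 (SE 0.416, edgeR FDR 0.000176), Atf4, a transcription factor of the integrated stress response, fell by 2.29 (SE 0.2415, FDR 0.000113), Slc7a11, the cystine transporter, fell by 1.79 (FDR 0.00122), and Srsf3, a splicing factor, fell by 1.67 (FDR 5.47e-05).

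Among the 39 protein-coding hosts 7 fell and 0 rose in the fit on 9 libraries, with a median of -0.03. The 4 with the largest changes were Dkc1, Hspa8, a heat shock chaperone (-1.38, SE 0.202, edgeR FDR 0.000577), Cnot1, the scaffold of the CCR4-NOT deadenylase (-1.29, SE 0.203, FDR 0.00083), and Nop56, a core C/D protein (-1.24, SE 0.173, FDR 0.000455). In the paired fit 10 rose and 10 fell, and without the Het and KO embryo 3 control libraries 18 rose and 9 fell, where 35.4% of all genes rose and 32.4% fell. In the first 2 fits the counts called in this list were near or below the shares of all genes.

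Of the 15 neighbouring genes that are not hosts, 5 fell and 2 rose with doxorubicin in the fit on 9 libraries, and 7 fell and 4 rose in the paired fit, against the same shares of all genes. Syncrip fell by 1.77 (SE 0.289, edgeR FDR 0.00103) and Rcc1, the exchange factor of RAN beside Snhg3, fell by 1.16 (SE 0.2115, FDR 0.00178). Rcc1 shares 135 of the 986 annotated exonic bases of Snhg3 on the same strand in GENCODE, and union mode counts a read over both for neither. The authors counted with the iGenomes mm10 annotation, whose overlaps for the hosts were not examined. Mcmdc2 lies on the opposite strand from Snhg6 and shares 127 of its 1146 exonic bases. It had 0 to 7 counts in the controls and 15 to 46 with doxorubicin, against 396 to 3878 counts of Snhg6. Whether reads were assigned by strand was not stated, so Snhg6 carries that uncertainty.

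The snoRNA rows inside the hosts moved with their hosts across the control libraries. The RNA was purified and prepared for long transcripts, and a read on such a row may come from the unspliced host as well as from the snoRNA. Of 11 rows, 10 had counts, and Snora24 was listed at 0 in all 9 libraries. The 10 rows summed to 3.82 CPM in the WT library, 23.35 CPM in the Het library, and 4.53, 4.69 and 30.4 CPM in the KO control embryos, with 78 to 674 counts. With doxorubicin they summed to 2.34 CPM in the WT library, 9.61 CPM in the Het library, and 2.175 and 3.12 CPM in KO, lower than control in 4 of 4 embryos. Over all 110 snoRNA rows of the table, of which 92 had counts, Het and KO embryo 3 were again the highest controls, with 136.5 CPM and 177 CPM against 35.3 CPM to 40.1 CPM. With doxorubicin these 110 rows summed to 34.5 CPM in the WT library, 79.1 CPM in the Het library, and 27.1 and 36.75 CPM in KO. That was also lower than control in 4 of 4 embryos, so the decrease was not particular to the rows inside the hosts.

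The snoRNA rows were also set against the host they lie in, a comparison chosen after their values were seen. Per 100 counts of Snhg1, Snord22 had 3.18 counts for WT, 3.52 for Het, and 4.825, 5.46 and 3.89 for the KO control embryos. With doxorubicin the ratio was 1.94 for WT, 2.815 for Het, and 1.635 and 2.89 for KO embryos 1 and 2. Every library with doxorubicin was below every control library, Het and KO embryo 3 included. The means were 4.17 ± 0.946 (SD, n = 5) in control and 2.32 ± 0.629 (SD, n = 4) with doxorubicin, with p = 0.0159 in a two-sided exact permutation test, which is the smallest p that 5 against 4 libraries allow. That test takes the 9 libraries as independent, and permuting within the 4 pairs gave an exact p = 0.125, the smallest that 4 pairs allow. The Snord22 counts behind these ratios were 6 to 34 with doxorubicin and 19 to 182 in control.

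The ratio was computed for 6 hosts with counted snoRNA rows, and the p-values are not adjusted for their number. For Snhg12 the 4 rows together had 10.7 counts per 100 host counts for WT, 24.0 for Het, and 27.05, 9.49 and 22.6 for the KO control embryos, and with doxorubicin 5.83 for WT, 13.9 for Het, and 12.4 and 7.29 for KO. This was lower in 4 of 4 embryos, but the groups overlapped (exact permutation p = 0.111). For Snhg6 the ratio was also lower in every library with doxorubicin (exact permutation p = 0.0159), but Snord87 had only 0 to 10 counts per library, and no ratio reached an exact p under 0.125 within pairs. For Snhg4 and Snhg7 it was lower in 3 of 4 embryos (exact permutation p = 0.0635 and 0.127), and for Gas5 in 1 of 4 (p = 0.889, exact permutation), where Snord47 had 1 to 49 counts. These pairs use KO embryo 2. For Gas5 the ratio in the library of uncertain embryo was 2.63, above 2.28 in KO embryo 2 control and below 3.095 in KO embryo 3 control.

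**Figure D4:**
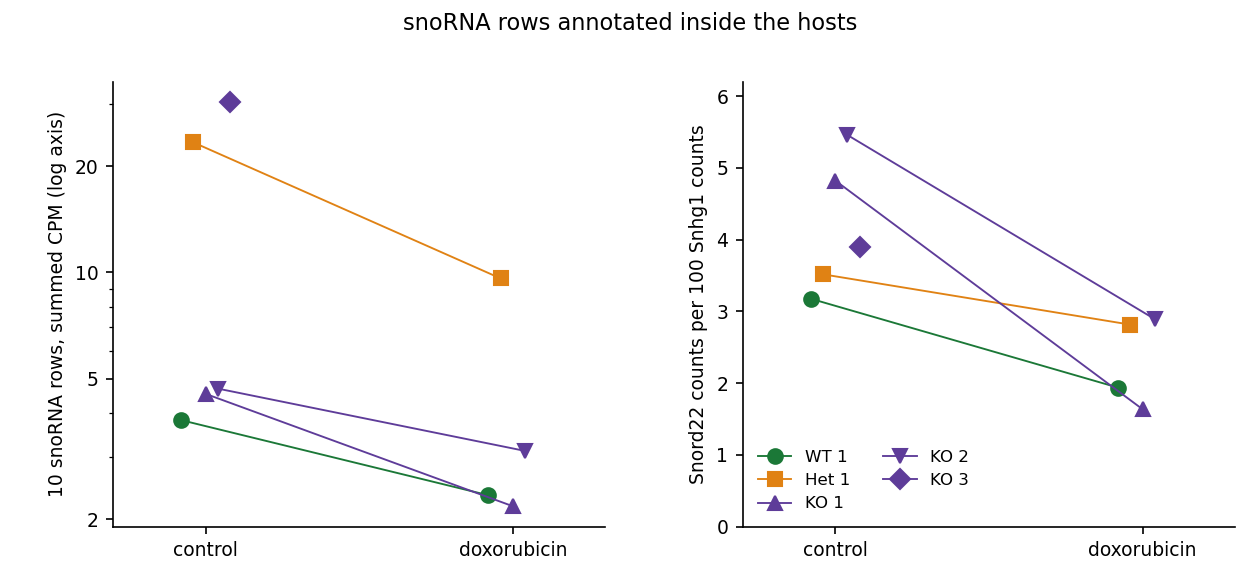
Left, summed CPM (log axis) of the 10 counted snoRNA rows inside the hosts, and right, Snord22 counts per 100 counts of its host Snhg1, in control and with doxorubicin, with lines joining libraries of the same embryo (circle WT, square Het, triangles KO embryos 1 and 2, diamond KO embryo 3, and the library of uncertain embryo drawn with embryo 2). On the left Het and KO embryo 3 stand apart, and on the right all 4 libraries with doxorubicin lie below the lowest control of 3.18.

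The genes with the profile most like that of Gas5 in log2 CPM over the 9 libraries, among 11119 genes with an average of at least 5 CPM, were Tmem126a (Pearson r = 0.995), Uros (0.994), Tatdn1 (0.994), Hnrnpa1 (0.9935) and Eif4a2 (0.993), of which Eif4a2 is a protein-coding snoRNA host. These r describe libraries of which Het and KO embryo 3 lie far from the others. Over the 6 libraries without them the r of these genes with Gas5 was between 0.9265 and 0.994. The hosts followed Gas5 unequally over these 6 libraries, with 0.957 for Snhg5, 0.906 for Snhg3, 0.836 for Snhg7 and 0.771 for Snhg4, but 0.297 for Snhg1, -0.037 for Snhg12, -0.67 for Snhg8 and -0.87 for Snhg6, where over 9 libraries all had been between 0.5715 and 0.981. The genes most like the mean of the 9 hosts were Trmt13 (0.995), Clk1 (0.994), Ube2b (0.994), Clk4 (0.993) and Pvt1 (0.993), and over the 6 libraries their r was between 0.788 and 0.997.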

How the data were processed

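RNA-Seq counts of Sall2 WT, Het and KO MEFs were used. The authors depleted ribosomal RNA, prepared stranded libraries, merged 4 FASTQ files per sample, aligned reads to mm10 with HISAT2 (2.1.0 in the submitters' processing notes) and counted them per gene with HTSeq in union mode. The deposited values are whole-number counts without normalization. The strand setting is not given in the sources used here. Groups and embryo numbers came from the labels. Members and gene lists were chosen with earlier results of these data known.

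The tests used edgeR 4.0.16 under R 4.3.3 (TMM, filterByExpr over the groups compared, glmQLFit and glmQLFTest, two-sided, Benjamini-Hochberg FDR under 0.01). Each SE was worked back from the test, as the absolute log2 fold change divided by the square root of its F statistic. It therefore depends on spread shared across genes as well as on that of the gene. Doxorubicin was compared with control on 9 libraries with genotype as covariate, KO with WT within each treatment, and their interaction over WT and KO. CPM were scaled with TMM over the 9 libraries, and ratios of single libraries used log2 CPM with a prior count of 2. Libraries of the same genotype and number were taken as pairs from an embryo, and as a check, the difference of KO embryos 1 and 2 in control correlated with that under doxorubicin (Pearson r = 0.385 over 14883 genes). With KO embryo 3 in the place of embryo 2 it was 0.233, and the embryo of the library deposited for both is not known. Each embryo gave 1 library per treatment, so p-values measure the spread between these libraries, which may be technical. Genes named are all members, up to 4 genes per list with the largest change past the threshold at 1 CPM or more, neighbours, snoRNAs inside members and the 5 genes most like Gas5 or the members' mean. Other genes were chosen after their values were seen. Alternatives were other scalings, DESeq2 1.42.0, other filters and thresholds, RUVg with 1 factor (control genes were those outside the 5000 of smallest p), the embryo block and leaving out libraries. The fits were also run on simulated counts of independent libraries. These had no embryo pairs and no libraries that stood apart, so this check does not cover the spread seen here. Limits from counts cover counting error only.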

Additional observations from a re-analysis of the deposited data

Results flagged for a closer look

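Snhg6 moved in the opposite direction in Het and in KO. Its log2 ratio of doxorubicin to control was -0.30 in the Het embryo, against 0.64 and 0.90 in KO embryos 1 and 2 and 0.89 in WT. Snhg12 showed the same pattern, with -0.31 in Het against 0.74 and 0.55 in KO and 0.47 in WT. With 1 Het library per treatment these differences were not tested. If the KO library with doxorubicin that is identical for embryos 2 and 3 is set against KO embryo 3 control, its ratios are -2.09 for Snhg6 and -1.26 for Snhg12, and the KO pairs then differ in sign among themselves.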

How the results depend on the processing

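The number of hosts called for doxorubicin against control, 1 of 9 in the reported fit, was 0 with DESeq2 size factors, with total counts, with upper quartile scaling, at an FDR under 0.001, in the KO libraries alone and without the Het libraries, 4 with DESeq2's Wald test and at an FDR under 0.05, 5 in the paired fit with the embryo as block, 3 in that block with the library of uncertain embryo as KO embryo 3 (added after seeing the data), 6 without Het and KO embryo 3 control, 7 with RUVg, and 0 to 5 with 1 library left out (5 without KO embryo 3 control). The number of genes called, 6266, was 3393 at an FDR under 0.001, 1911 in KO libraries alone, 9922 without Het and KO embryo 3 control, 9572 with RUVg, 7707 with DESeq2's Wald test, 8421 at an FDR under 0.05 (of 14883 tested), and 4102 to 8971 with 1 library left out. The hosts' median log2 fold change, -1.40, was -0.72 in the paired fit with the block, -0.49 without Het and KO embryo 3 control, and -1.68 to -0.71 with 1 library left out.

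The direction turned for Snhg6 (0.53 in the paired fit with the block, 0.80 without Het and KO embryo 3 control, 0.53 without KO embryo 3 control alone), Snhg12 (0.35, 0.58 and 0.34), Snhg1 (0.028 without Het and KO embryo 3 control) and Snhg8 (-0.053 in KO libraries alone). With 1 library left out the range was -0.70 to 0.53 for Snhg6 and -0.54 to 0.34 for Snhg12. Gas5, Snhg3, Snhg4, Snhg5 and Snhg7 stayed below 0 in every alternative run. Under RUVg Snhg6 was called lower (log2 fold change -0.48), opposite to its call without Het and KO embryo 3 control. Upper quartile scaling moved the median of all genes from -0.02 to 0.14. The causes were not tested.

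KO against WT in control gave 0 to 47 genes with 1 KO library left out (47 without KO embryo 1 and 41 without KO embryo 2). KO against WT with doxorubicin, 30 genes, gave 5 with DESeq2 size factors, upper quartile scaling or DESeq2's Wald test, 16 with total counts, 4 with at least 5 counts in at least 2 libraries, 46 at an FDR under 0.05 and 0 with all libraries in a single fit. The interaction gave 8 genes in the paired fit with the block, 2 in that block with the library of uncertain embryo as KO embryo 3, and 0 otherwise. None of these alternatives called a host. WT libraries could not be left out of the genotype comparisons, nor KO libraries out of that with doxorubicin, since no residual degrees of freedom or no WT remained. Counts of 1 to 10 in several snoRNA rows limit their ratios.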

Other observations

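Other noncoding host genes differed in direction. Snhg10 counted 7 reads for WT, 44 for Het, and 12, 7 and 42 for the KO control embryos, and with doxorubicin 45 for WT, 143 for Het, and 46 and 60 for KO, higher in 4 of 4 embryos. Its log2 fold change was 1.83 (SE 0.481, edgeR FDR 0.0112) in the fit on 9 libraries and 2.33 (SE 0.272, FDR 0.000163) in the paired fit. Snhg18 had 21.3 CPM in WT, 61.0 CPM in the Het library, and 21.1, 22.8 and 73.4 CPM in the KO control embryos, and with doxorubicin 29.3 CPM in WT, 46.5 CPM in the Het library, and 29.9 and 29.0 CPM in KO. Its log2 fold change was -0.21 (edgeR FDR 0.67) in the fit on 9 libraries, 0.23 (FDR 0.255) in the paired fit and 0.43 (SE 0.0985, FDR 0.00259) without Het and KO embryo 3 control. Snhg9 had 0 or 1 count in each control library and 7 to 14 counts with doxorubicin. 9430008C03Rik (Snhg17), the host beside Snhg11, fell by 2.12 on the log2 scale (SE 0.478, edgeR FDR 0.00533) and by 1.59 in the paired fit (SE 0.144, FDR 5.01e-05). Dancr (-1.21, SE 0.66, FDR 0.15) and the microRNA host Mir17hg (-0.34, SE 0.403, FDR 0.504) did not pass.

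Markers of other cell types were counted in the same libraries. The 6 endothelial markers summed to 18.4 CPM to 46.4 CPM in control and 38.5 CPM to 92.3 CPM with doxorubicin, the 6 epithelial markers to 7.04 CPM to 18.5 CPM and 7.43 CPM to 13.1 CPM, and the 7 neuron markers to 84.9 CPM to 134 CPM and 75.8 CPM to 114 CPM. Within the epithelial list Krt5, a basal keratin, had 0 or 1 count in each control library and 10 to 88 with doxorubicin. Epcam, an adhesion protein, rose by 4.48 on the log2 scale (SE 0.648, edgeR FDR 0.000543) from 0 to 7 counts to 60 to 73, and Krt18, a simple epithelial keratin, fell by 1.59 (SE 0.233, FDR 0.000586). The 10 interferon-induced genes did not pass in the fit on 9 libraries (0 of 10), while all 10 rose without Het and KO embryo 3 control, with a median log2 fold change of 3.29. In these 6 libraries the hosts moved in both directions.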
